A study of Mus musculus with 6 samples.

Results

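Ahcy, Pcdh8, Fabp5, Rcn2 and Hdgfl2 carried more RNA polymerase II in Armc5(-/-) than in wild-type (WT) mouse adrenal glands, both at the promoter and along the transcribed gene. These 5 genes of the 12718 in the tables were picked for that pattern: in each, the reads at the transcription start site (TSS) and over the gene body were higher in the knockout. Levels were measured by ChIP-seq, in which crosslinked chromatin is precipitated with an antibody, here against the N-terminal domain of RPB1, the largest subunit of the polymerase. The comparison was between whole adrenal glands of 3 WT and 3 Armc5(-/-) female mice of the mixed strain 129 sv X CD1, aged 10 to 14 months, and the labels give each library its own mouse number. The labels name no treatment, and how the allele was made was not given in the sources used here. Whole glands hold cortex, medulla, vessels, capsule and attached fat, so more polymerase per gene and more cells that use the gene cannot be told apart.

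RNA polymerase II is loaded at the promoter, often pauses a short way into the gene, and is then released to transcribe the gene body, past the transcription end site (TES). Reads at the TSS therefore reflect loaded and paused polymerase, and reads over the body reflect polymerase in elongation. ARMC5 is known as a substrate adaptor of a CUL3 ubiquitin ligase that acts on RPB1. The 5 genes have different known roles. Ahcy encodes the enzyme that clears S-adenosylhomocysteine, the product of methylation reactions, Fabp5 an intracellular carrier of fatty acids, and Rcn2 a reticulocalbin, which binds calcium inside the endoplasmic reticulum. Hdgfl2 encodes a chromatin reader with a PWWP domain that is known to help polymerase pass nucleosomes, and Pcdh8 a protocadherin, a cell adhesion protein known from the embryo and from neurons.

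The genes lie on 5 chromosomes in GRCm38.p6. Ahcy spans 15188 bp (chromosome 2, 155059310 to 155074497, minus strand), Rcn2 17239 bp (chromosome 9, 56041845 to 56059083, plus strand) and Hdgfl2 21007 bp (chromosome 17, 56079599 to 56100605, plus strand). The other two are short, with 4541 bp for Pcdh8 (chromosome 14, 79766772 to 79771312, minus strand) and 4026 bp for Fabp5 (chromosome 3, 10012585 to 10016610). All are shorter than the median of 23065 bp over the 12384 genes with an annotated length. The widths of the TSS and TES windows were not given in the sources used here. ChIP reads carry no strand, and the annotated noncoding genes Gm39966 and Gm9748, which overlap Ahcy and Pcdh8 and have no values here, cannot be told apart from them. The noncoding gene Gm45609, on the opposite strand, lies 15 bp from the start of Ahcy and has no values here either. Reads at the Ahcy TSS may therefore include reads of Gm45609. The tRNA gene n-TEctc4, also without values, overlaps Hdgfl2 by 72 bp.

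The polymerase was measured at these promoters, so their sequence is shown. Promoters of 4 of the 5 genes are in the RefSeq table, and that of Fabp5 is not. Each line gives the bases before the annotated start on the gene's own strand, from chr2:155074498-155074747 (minus strand), chr14:79771313-79771562 (minus strand), chr9:56041595-56041844 (plus strand) and chr17:56079381-56079598 (plus strand) of GRCm38.p6. Lengths are 250 bases, and 218 for Hdgfl2, where the last bases of the table's window lie inside the annotated gene. Capitals mark matches, on either strand, to the TATA box core TATAA, the CCAAT box, the GC box core GGGCGG or the AP-1 motif TGANTCA.
Ahcy: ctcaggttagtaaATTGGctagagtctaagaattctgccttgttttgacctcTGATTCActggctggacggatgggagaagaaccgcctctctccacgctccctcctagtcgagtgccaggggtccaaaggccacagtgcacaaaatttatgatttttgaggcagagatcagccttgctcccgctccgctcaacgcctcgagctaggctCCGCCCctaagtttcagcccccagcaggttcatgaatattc
Pcdh8: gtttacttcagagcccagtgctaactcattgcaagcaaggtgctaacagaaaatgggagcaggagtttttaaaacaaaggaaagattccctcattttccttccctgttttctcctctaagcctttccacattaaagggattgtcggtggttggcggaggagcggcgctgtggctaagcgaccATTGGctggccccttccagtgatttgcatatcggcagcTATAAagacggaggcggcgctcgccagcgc
Rcn2: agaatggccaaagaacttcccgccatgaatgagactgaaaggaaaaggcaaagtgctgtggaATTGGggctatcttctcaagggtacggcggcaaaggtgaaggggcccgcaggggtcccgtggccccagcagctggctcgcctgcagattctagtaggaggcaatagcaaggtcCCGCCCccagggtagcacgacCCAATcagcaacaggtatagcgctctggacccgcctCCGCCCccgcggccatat
Hdgfl2: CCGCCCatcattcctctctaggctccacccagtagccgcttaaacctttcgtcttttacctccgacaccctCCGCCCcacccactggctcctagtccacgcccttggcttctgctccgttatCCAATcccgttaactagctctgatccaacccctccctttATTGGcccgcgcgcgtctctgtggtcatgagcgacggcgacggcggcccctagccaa
The 4 sequences differed in the elements they held. Only Pcdh8 had TATAA, from base -30 to -26 counted back from the start, a motif present in 22.8% of 32851 RefSeq promoter windows of 250 bases. GGGCGG was matched 1 time in Ahcy, 2 times in Rcn2 and 2 times in Hdgfl2, and 0 times in Pcdh8, against 32.7% of windows with a match (28.2% for 218 bases). CCAAT was matched in all 4, against 33.8% of windows (30.8% for 218 bases). TGANTCA was matched in Ahcy alone (6.75% of windows), and CACGTG, also searched, in 0 of the 4 (6.02%). The number of CG dinucleotides was 9 in Ahcy, 11 in Pcdh8, 13 in Rcn2 and 17 in Hdgfl2, where the median window held 6. No matches overlapped each other. A match is a description of letters and not a bound site.

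Each library held between 14511177 and 28190157 counts over the 3 regions. The 3 shallowest libraries were WT replicates 1 and 2 with knockout replicate 1, so depth runs partly along genotype. The predicted gene Gm10800 took 10.9% to 25.1% of TSS counts in those 3 libraries and 2.67% to 4.66% in the other 3. The labelled tissue was checked against genes of cortical steroid synthesis: gene body counts per kb of Star, Cyp11b1 and Cyp11a1 lay at or above percentile 97.3 of all genes in WT. Those of the medulla genes Chga and Pnmt were at percentiles 97.4 and 98.6. Values below are CPM, the counts of a gene relative to the library's total in that region, scaled by the trimmed mean of M-values (TMM), and fold changes with their standard errors (SE) are from the edgeR quasi-likelihood fit of each whole table. The members were picked from this contrast, so their fold changes are descriptions, and no p-value is given for them in any region.

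All 5 genes were called as higher at the TSS and over the gene body at an adjusted p under 0.05, which is what they were picked for. Of all genes tested, 0.339% were called as higher at the TSS, 0.244% over the gene body and 0.0473%, or 6 genes, in both. The sixth was Hist1h1a, a linker histone gene, which had log2 fold changes of 1.04 ± 0.16 and 2.42 ± 0.29. This count of 6, and with it the call of all 5 genes in both regions, fell to 0 without WT replicate 1 or without any one of the 3 knockout libraries. It also fell to 0 with the mouse number prefix as a covariate, with a replicate block and with all regions scaled together. Without WT replicate 2 it was 4 with 2 of the 5 genes among them, and without WT replicate 3 it was 4 with 3 of the 5. At the TES, 2 of the 5 were called as higher, Ahcy and Pcdh8, where 0.820% of all genes were, so that these 2 were called in all 3 regions (0.0237% of genes). The 3 knockout libraries lay above the 3 WT libraries for 5 of 5 genes at the TSS (6.47% of all genes), 5 of 5 over the gene body (6.51%) and 4 of 5 at the TES (6.69%), and for 4 of 5 in all 3 regions (0.696%). The median log2 fold change of the 5 was 1.31 at the TSS, 1.34 over the gene body and 0.84 at the TES, and that of all tested genes was -0.01, -0.02 and -0.02. TMM sets the bulk of genes near 0 within each region, so these medians cannot show a shift shared by most genes. With all regions scaled together the all-gene median was 0.24 at the TSS and -0.12 in the body.

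**Figure D1:**
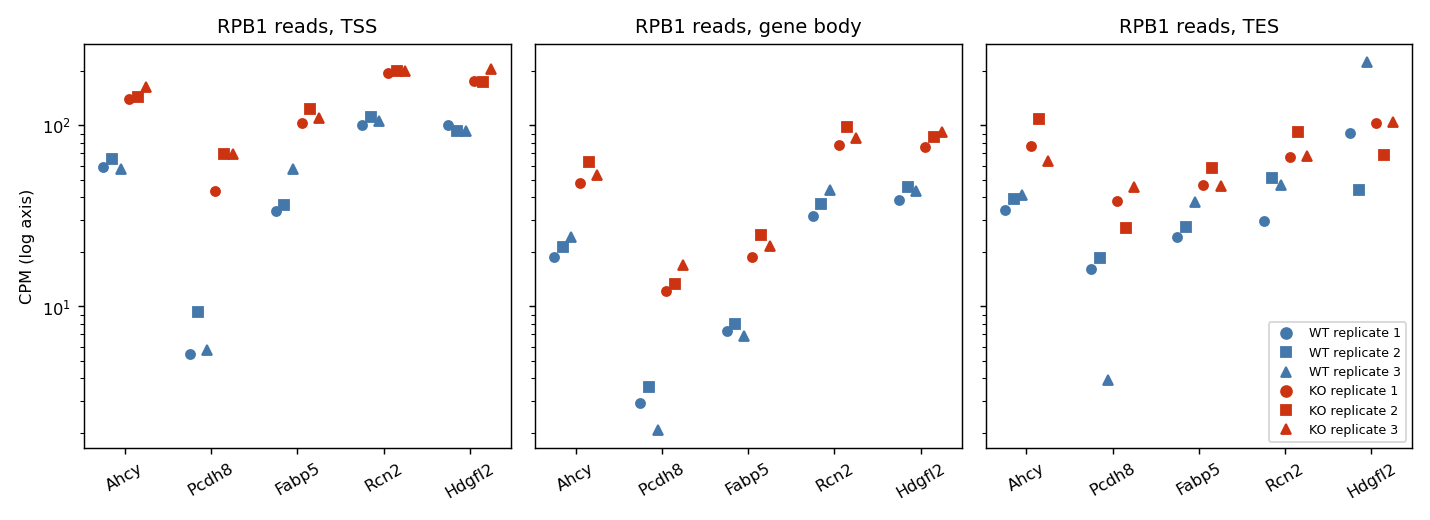
RPB1 reads of the 5 genes in each of the 6 libraries, as CPM on a log axis, in 1 panel per region; each point is 1 library. Knockout points lie above WT points in every column except Hdgfl2 at the TES, where WT replicate 3 is the highest at 223 CPM.

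Ahcy was higher by about the same factor along its whole length. At the TSS, WT libraries 1 to 3 had 59.3, 65.1 and 57.3 CPM and knockout libraries 1 to 3 had 140.1, 143 and 163 CPM. The groups were far apart, and the lowest knockout library was 2.15 times the highest WT library. In the gene body the WT values were 18.8, 21.4 and 24.3 CPM and the knockout values 48.3, 62.5 and 52.9 CPM. At the TES they were 34.3, 39.2 and 41.1 CPM for WT, against 77.4, 109 and 63.4 CPM in the knockout. Knockout replicate 2 was highest in the body and at the TES, and no groups overlapped. The fold changes were 2.47 at the TSS (log2 1.31 ± 0.15, SE, n = 3 per genotype), 2.54 over the gene body (1.34 ± 0.17) and 2.18 at the TES (1.13 ± 0.23). Leaving out 1 library at a time gave a TES log2 fold change between 0.87, without knockout replicate 2, and 1.30.

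Fabp5 was higher at the TSS and in the body by similar factors, and less so at the TES. Its TSS values were 33.8, 36.2 and 57.6 CPM for WT, against 103, 123 and 110.1 CPM in the knockout. WT replicate 3 stood above the other WT libraries but below every knockout library. Gene body values were 7.35, 7.97 and 6.83 CPM for WT, against 18.7, 24.8 and 21.7 CPM in the knockout, a gap of 2.35 times between the nearest libraries. TES values were 24.2, 27.4 and 37.6 CPM for WT, against 46.7, 58 and 46.2 CPM in the knockout. The groups were again separate at the TES, with 1.23 times between the nearest libraries. The fold changes were 2.57 at the TSS (log2 1.36 ± 0.22), 2.95 over the gene body (1.56 ± 0.18) and 1.67 at the TES (0.74 ± 0.25). Without WT replicate 3 the TSS log2 fold change was 1.69. RefSeq lists a pseudogene, Fabp5l2, and reads of near-identical copies can be split between them.

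Rcn2 had the smallest fold change of the 5 at the TSS, and its libraries lay close together. Its TSS values were 101, 112 and 106 CPM for WT, against 194, 200.1 and 201 CPM in the knockout. The SD was 5.23 CPM in WT and 4.13 CPM in the knockout. Gene body values were 31.4, 36.7 and 44.1 CPM for WT, against 77.5, 98.5 and 85 CPM in the knockout. TES values were 29.6, 51 and 46.8 CPM for WT, against 66.7, 91.4 and 67.4 CPM in the knockout. WT replicate 1 was lowest in all regions, and the groups did not overlap in any. The fold changes were 1.87 at the TSS (log2 0.91 ± 0.14), 2.33 over the gene body (1.22 ± 0.17) and 1.79 at the TES (0.84 ± 0.23).

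Hdgfl2 was higher at the TSS and in the body but not at the TES. Its TSS values were 100.2, 93.1 and 93.7 CPM for WT, against 177, 173 and 205 CPM in the knockout. Gene body values were 38.8, 45.6 and 43.7 CPM for WT, against 75.7, 85.9 and 91.8 CPM in the knockout. In both regions the groups were separate, by 1.73 and 1.66 times between the nearest libraries. The fold changes were 1.93 (log2 0.95 ± 0.15) and 1.98 (0.99 ± 0.14). At the TES the WT values were 90.5, 44.1 and 223 CPM and the knockout values 103, 69 and 105 CPM. WT replicate 3 stood far above every other library there, and the groups overlapped. The TES log2 fold change was -0.40 ± 0.31 with all libraries and 0.42 without WT replicate 3.

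The end of Hdgfl2 meets the end of Plin4, a lipid droplet protein gene of fat cells on the opposite strand, and the annotated genes overlap by 19 bp. Plin4 had 84, 53.9 and 124 CPM at the TES in WT replicates 1 to 3 and 76.6, 59.4 and 82.6 CPM in the knockout. Its gene body values were 31.7, 18.2 and 69.4 CPM for WT, against 35.9, 31.7 and 40.8 CPM in the knockout. Among the markers of fat cells fixed for the check, 1 of 7 is in the tables, Fabp4, a fatty acid carrier of adipocytes. Fabp4 had 135, 51 and 222 CPM at the TES for WT, against 84.3, 91.4 and 94.4 CPM in the knockout. These TES and body values were highest in WT replicate 3 and lowest in WT replicate 2, as was Hdgfl2 at the TES. Other values of such genes had another order. Plin4 at the TSS had 12.5, 14.5 and 12.5 CPM in WT, with WT replicate 2 highest of the WT libraries. Fabp4 at the TSS was highest in knockout replicate 1 (60.2 CPM, with 54.4 CPM in WT replicate 3). Plin5, a further lipid droplet gene, had body values of 15.2, 15.5 and 12.8 CPM in WT, lowest in WT replicate 3. The part of fat cell reads in the Hdgfl2 TES value was not tested. At the TSS, the Hdgfl2 values of WT replicates 2 and 3 differed by less than 1 CPM, and Plin4 had another order there as well. The part of fat cell reads at the Hdgfl2 TSS was not tested either.

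**Figure D2:**
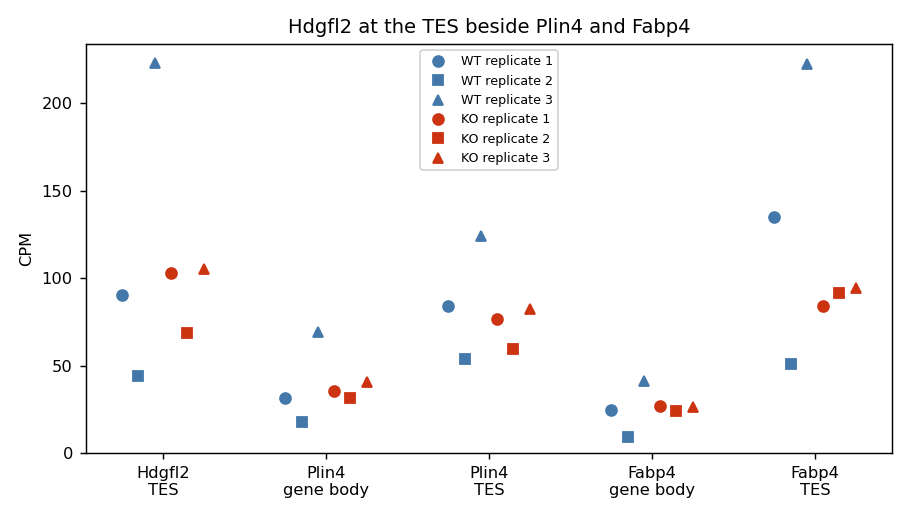
CPM of Hdgfl2 at the TES beside Plin4, which overlaps its end, and Fabp4, a fat cell marker; each point is 1 library. WT replicate 3 is the highest and WT replicate 2 the lowest point in every column drawn. Plin4 and Fabp4 at the TSS and Plin5 in the body, which are not drawn, had another order.

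Pcdh8 had the largest fold change of all tested genes at the TSS. Its TSS values were 5.44, 9.31 and 5.76 CPM for WT, against 43.3, 69.5 and 69.9 CPM in the knockout. The WT values rest on 10, 9 and 18 counts and the knockout values on 77, 254 and 191 counts, so counting error is larger here than for the other genes. The lowest knockout library was 4.66 times the highest WT library. Gene body values were 2.93, 3.61 and 2.08 CPM for WT, against 12.2, 13.3 and 17 CPM in the knockout. TES values were 16, 18.6 and 3.94 CPM for WT, against 38.3, 27 and 45.7 CPM in the knockout. WT replicate 3 was far below the other WT libraries at the TES, with 9 counts, and the groups stayed apart. The fold changes were 9.44 at the TSS (log2 3.24 ± 0.32), 5.00 over the gene body (2.32 ± 0.27) and 3.06 at the TES (1.61 ± 0.41). Without WT replicate 3 the TES log2 fold change was 1.10. In the gene body, 2 of 12714 genes had a larger fold change.

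**Figure D3:**
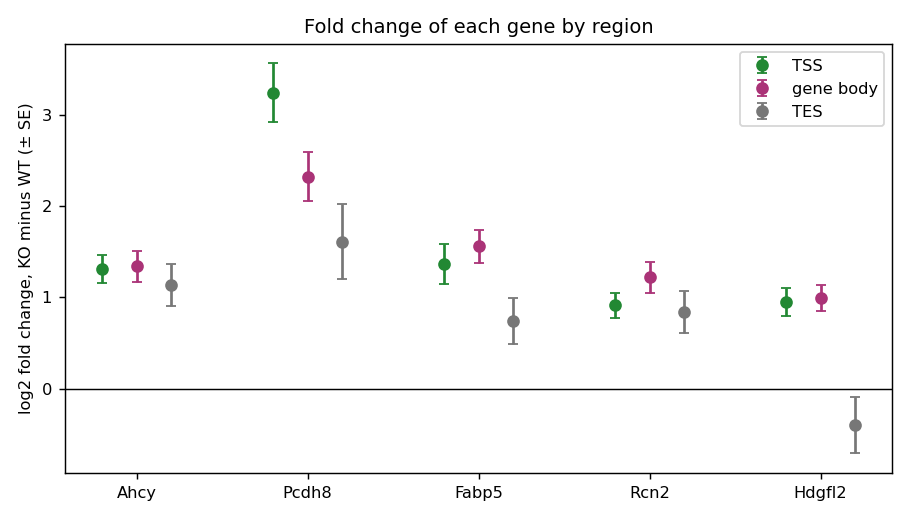
Log2 fold change (knockout minus WT) of each gene at the TSS, gene body and TES from the edgeR fits; bars are ± 1 SE, n = 3 libraries per genotype. TSS and body points are close for 4 genes, Pcdh8 falls from 3.24 at the TSS to 1.61 at the TES, and Hdgfl2 lies below 0 at the TES.

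In order of size at the TSS the genes were Pcdh8, Fabp5, Ahcy, Hdgfl2 and Rcn2, and in the gene body Pcdh8, Fabp5, Ahcy, Rcn2 and Hdgfl2. The log2 fold changes of Fabp5 and Ahcy differed by less than the SE of either at the TSS, as did those of Hdgfl2 and Rcn2. Pcdh8 stood apart from the rest in both regions. Levels between genes were compared per kb of annotated length, in the gene body. That length may include bases of the TSS and TES windows, whose widths were not given. Per kb values of the short genes Pcdh8 and Fabp5, and their place in the order, may be the most affected. In WT, Rcn2 had 2.17 ± 0.37 CPM per kb (SD, n = 3), Hdgfl2 2.03 ± 0.166, Fabp5 1.83 ± 0.142, Ahcy 1.42 ± 0.182 and Pcdh8 0.633 ± 0.169. The first 3 lay within 1 SD of Rcn2 of each other. Pcdh8 was at percentile 3.99 of the 12384 genes with a length and the others between percentiles 38.9 and 62.1. In the knockout the order was Fabp5 (5.40 ± 0.749 CPM per kb), Rcn2 (5.05 ± 0.618), Hdgfl2 (4.02 ± 0.388), Ahcy (3.59 ± 0.477) and Pcdh8 (3.12 ± 0.555), from percentile 75 for Pcdh8 to 88.5 for Fabp5.

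**Figure D4:**
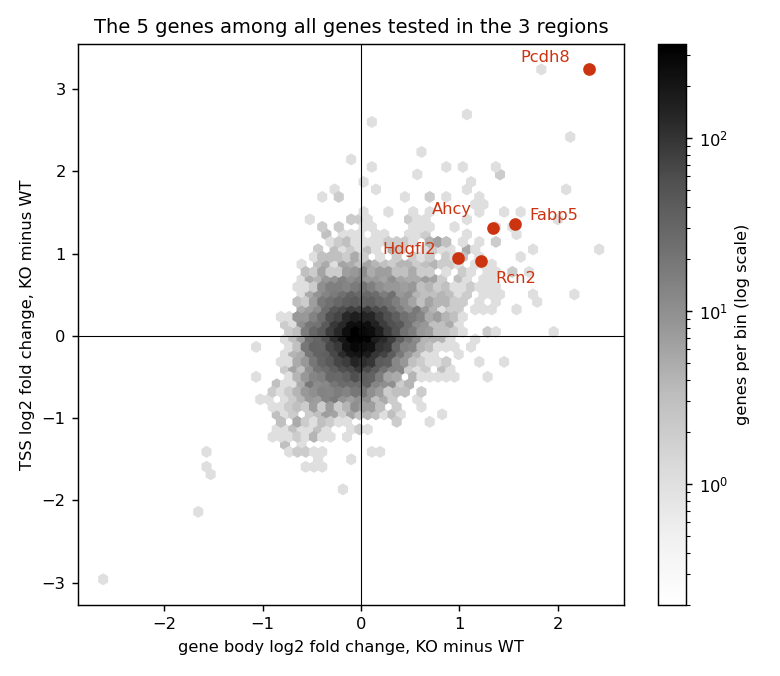
TSS against gene body log2 fold change (knockout minus WT) of the genes tested in all 3 regions, as the number of genes per bin on a log grey scale, with the 5 genes in red. The 5 lie at 0.91 or above at the TSS and 0.99 or above in the body, with Pcdh8 at the upper right.

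Whether the promoter or the body gained more was read from the ratio of the 2 CPM values within each library. For Ahcy, Fabp5 and Hdgfl2 the TSS to body ratio did not move by more than its SE. That of Ahcy was 3.16, 3.04 and 2.35 in WT and 2.90, 2.28 and 3.08 in the knockout (log2 difference -0.05 ± 0.23, limma moderated SE). That of Hdgfl2 was 2.58, 2.04 and 2.15 in WT and 2.33, 2.02 and 2.23 in the knockout (-0.04 ± 0.20). Fabp5 gave 4.59, 4.54 and 8.43 in WT and 5.50, 4.98 and 5.08 in the knockout (-0.12 ± 0.28), and its WT spread came from WT replicate 3. In these 3 genes the promoter and the body differed from WT by factors that could not be told apart at this error.

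Rcn2 and Pcdh8 leaned in opposite directions. The TSS to body ratio of Rcn2 was 3.23, 3.05 and 2.39 in WT and 2.50, 2.03 and 2.37 in the knockout (log2 difference -0.32 ± 0.22), with overlapping groups. That of Pcdh8 was 1.86, 2.58 and 2.77 in WT and 3.55, 5.24 and 4.11 in the knockout (0.78 ± 0.25). For Pcdh8 all 3 knockout ratios were above all 3 WT ratios, and 97.9% of the 12679 genes had a smaller ratio change. Its WT ratios rest on 9 to 18 TSS counts per library, and with a prior count of 5 its change was 0.59 ± 0.24. The genes were picked for high TSS and body values, so this rank is a description. The share of all genes with separate groups in the TSS to body ratio was not counted. The median ratio change of all genes was -0.02. With all regions scaled by the same library size, that median moved to 0.35, and the ratio changes became 0.32 for Ahcy, 0.25 for Fabp5, 0.33 for Hdgfl2, 0.05 for Rcn2 and 1.14 for Pcdh8. Relative to all genes the changes were the same under either scaling to within 0.01, from -0.31 for Rcn2 to 0.80 for Pcdh8 with TMM within each region. Which region gained more in absolute terms for the first 4 genes therefore depends on the scaling.

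The log2 fold change at the TES minus that in the body, taken from the ratio within each library, ran from -0.26 to -1.07 over the 5 genes. The genes were picked for a high body value and not for the TES, so a smaller TES value follows in part from that choice, and these ratios are descriptions. The TES to body ratio of Fabp5 was 3.30, 3.44 and 5.51 in WT and 2.50, 2.34 and 2.13 in the knockout (log2 difference -0.78 ± 0.24), with separate groups. That of Rcn2 was 0.942, 1.39 and 1.06 in WT and 0.861, 0.928 and 0.792 in the knockout (-0.39 ± 0.22), separate by a narrow margin. Ahcy gave -0.26 ± 0.21, near its error, and Pcdh8 -0.60 ± 0.36, both with overlapping groups. For Hdgfl2 the difference was -1.07 ± 0.50 and rested in part on WT replicate 3, which had a ratio of 5.09 against 2.33 and 0.968 in the other WT libraries. The median of all genes was -0.01. Of 12677 genes, 0.308% had a lower change than Hdgfl2, 1.14% than Fabp5, 3.44% than Pcdh8, 10.7% than Rcn2 and 19.8% than Ahcy. The share of all genes with separate groups in this ratio was not counted, so these separations are descriptions.

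**Figure D5:**
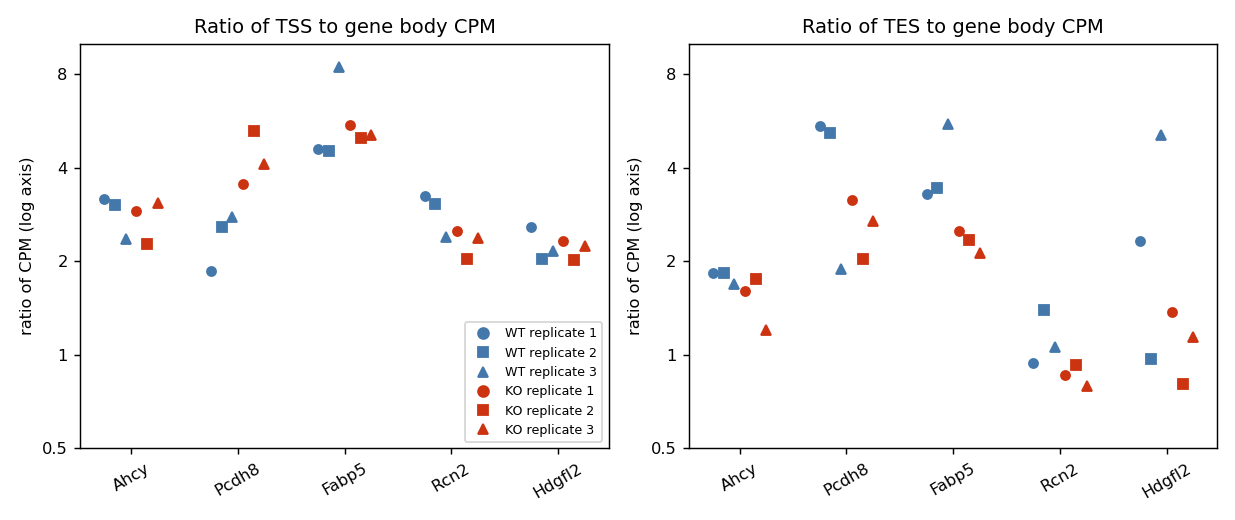
Ratio of TSS to gene body CPM (left) and of TES to gene body CPM (right) in each library, on log axes; each point is 1 library. For the TSS ratio Pcdh8 has all knockout points above the WT points, and for the TES ratio Fabp5 and Rcn2 have all knockout points below. The share of all genes with such separate groups was not counted.

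The raw counts also give the part of a gene's reads that fell in each region, which needs no scaling. Of the Pcdh8 reads, 11.1%, 12.7% and 24.7% were at the TSS in WT and 24.9%, 41.0% and 30.4% in the knockout. WT replicate 3 and knockout replicate 1 were nearly equal in this share. The TSS share of Hdgfl2 reads was 15.9 ± 2.30% in WT and 21.3 ± 1.47% in the knockout (SD, n = 3), and that of Ahcy 20.4 ± 2.43% and 24.7 ± 2.08%. For Rcn2 the shares were 21.5 ± 2.98% and 22.4 ± 0.626%, and for Fabp5 30.5 ± 11.1% and 36.7 ± 2.15%. Over all genes the TSS held 9.10 ± 1.80% of reads in WT and 10.8 ± 1.11% in the knockout. This all-gene share ran with depth. It was 8.34%, 7.81% and 9.93% in the shallower WT replicates 1 and 2 and knockout replicate 1. In the deeper WT replicate 3 and knockout replicates 2 and 3 it was 11.2%, 12.1% and 10.5%. Reads of Gm10800 are included in it. The TES share of Fabp5 was 18.6 ± 1.78% in WT and 11.3 ± 0.315% in the knockout, while over all genes it was 7.61 ± 0.989% and 7.90 ± 0.526%.

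Sizes within subsets of the libraries are given as a description. Since every knockout library lay above every WT library at the TSS and in the body of these genes, any subset gives a positive difference there, and its sign says nothing about depth or mouse number. Among the 3 libraries with the fewest counts, knockout replicate 1 exceeded the mean of WT replicates 1 and 2 by 0.86 to 2.53 on the log2 scale over the 5 genes at the TSS, and by 0.85 to 1.89 in the gene body. Among the other 3, knockout replicates 2 and 3 exceeded WT replicate 3 by 0.92 to 3.50 at the TSS and by 1.02 to 2.82 in the body. The mouse numbers in the labels start with C0 or 99, and the differences within the sets ranged from 0.82 to 3.18 at the TSS and from 0.96 to 2.43 in the body. The C0 set has 1 library per genotype and the 99 set 2 per genotype, and each depth class has a single library of one genotype. At the TES, Hdgfl2 was -1.38 among the deeper libraries and 0.71 among the shallower ones.

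Profiles of the 5 genes over the 6 libraries were compared as log2 CPM centred within each region, which gives 18 values per gene that share libraries and depth. Ahcy and Rcn2 were the closest pair, with Pearson's r = 0.97. Ahcy, Fabp5, Rcn2 and Pcdh8 correlated at 0.80 to 0.97 with each other, and Hdgfl2 at 0.40 to 0.67 with them. Since all were picked for a knockout rise, a high value is built in. Among 2631 genes with at least median levels in each region, the closest to Ahcy were Rcn2 and Irf7 (r = 0.96), an interferon regulatory factor, and those closest to Rcn2 other than members were Irf7 (0.95) and Skp1a (0.91), a ubiquitin ligase subunit gene. Fam117a (0.93) and Grasp (0.89) were closest to Pcdh8. Fabp5 had Rcn2 (0.92) and Rnf213 (0.89), a ubiquitin ligase gene, and Hdgfl2 had Arl6ip1 and Cct7 (both 0.76), the latter a chaperonin subunit gene. Ahcy was not among the 2631 genes, although it correlated at 0.93 with Fabp5 and at 0.97 with Rcn2. For Irf7 the log2 fold change was 1.03 (TSS), 1.07 (body) and 0.87 (TES).

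Of the 5 genes, Rcn2 and Hdgfl2 lay closest to the limit for being called in both regions, and their fold changes are given above. The genes just outside were Ccl7, a chemokine (1.81 ± 0.31 at the TSS and 2.12 ± 0.33 in the body), C2cd4b (22 ± 6.42 CPM in WT and 86.6 ± 12 CPM in the knockout at the TSS, and log2 1.40 ± 0.22 in the body) and Cdkn2aip (0.78 ± 0.15 and 1.28 ± 0.18). Ccl7 and C2cd4b had larger fold changes than Rcn2 in both regions, with larger SE.

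No neighbouring gene with values here was called by edgeR at the TSS or in the body. Within 100 kb of the 5 genes, 16 other genes are in the tables, 13 of them around Hdgfl2, 2 around Ahcy and 1 beside Rcn2. At the TSS their median log2 fold change was -0.11 (range -0.52 to 0.33) and 0 were called, with 0 at an unadjusted p under 0.05 and 0 called by DESeq2 or limma-voom (edgeR calls 0.339% of all genes). In the gene body the median was -0.04 and 0 were called by edgeR (0.252% of all genes), with 2 at an unadjusted p under 0.05, 1 called by DESeq2 and 0 by limma-voom. The highest of these was Plin5, a lipid droplet protein gene 10992 bp from Hdgfl2, with 14.5 ± 1.51 CPM in WT and 25.6 ± 1.74 CPM in the knockout (log2 0.83 ± 0.16, adjusted p = 0.123, edgeR). Ubxn6, 266 bp from the start of Hdgfl2 and on the opposite strand, had a log2 fold change of -0.18 ± 0.27 at the TSS and 0.09 ± 0.21 in the body. At the TES 1 of the 16 was called (0.915% of all genes), the agouti gene a, whose end lies 8298 bp from the end of Ahcy. It rose from 73.3 ± 13.4 to 146 ± 18.9 CPM (log2 0.99 ± 0.24, adjusted p = 0.0208, edgeR), while its body value was 471 ± 20 CPM in WT and 460.4 ± 12.1 CPM in the knockout.

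The relatives and pathway partners of the 5 genes were examined with 5 lists, of which 87 genes were tested in each region. By edgeR 0 of them were called in any region, where 0.339%, 0.252% and 0.915% of all genes were called in the 3 regions in that order, TSS first. At an unadjusted p under 0.05 there were 5, 5 and 7, and over all genes 5.57%, 5.05% and 6.85%. DESeq2 called 3 in the gene body, Mat2a, Amd1 and Calr, and 0 in the other regions, and limma-voom called 0.

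Of the genes of S-adenosylmethionine and S-adenosylhomocysteine turnover, the cycle of Ahcy, 20 of 26 were tested. Their median log2 fold change was 0.12 (TSS), -0.02 (body) and -0.08 (TES). Mat2a, which makes S-adenosylmethionine, had 85 ± 11.2 CPM in the WT gene body and 146 ± 24 CPM in the knockout (log2 0.78 ± 0.17, edgeR adjusted p = 0.191). Amd1, which decarboxylates it for polyamine synthesis, had 44.1 ± 3.15 and 64.5 ± 0.927 CPM (0.55 ± 0.13, adjusted p = 0.226). The Ahcy relatives Ahcyl1 and Ahcyl2 had gene body log2 fold changes of -0.09 and 0.11. Cth, an enzyme of cysteine synthesis, had the smallest p at the TSS (0.63 ± 0.26, adjusted p = 0.824).

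Among endoplasmic reticulum proteins and relatives of Rcn2, 21 of 21 were tested, with medians of 0.01, -0.01 and 0.08 in the same order of regions. Calr, a calcium-binding chaperone, had 38.9 ± 6.76 CPM in the WT gene body and 73.7 ± 11 CPM in the knockout (log2 0.92 ± 0.18, edgeR adjusted p = 0.129). Its TSS value was 0.12 ± 0.15. The closest relatives Rcn1 and Rcn3 had gene body log2 fold changes of -0.34 ± 0.26 and -0.05 ± 0.21. Pdia3, a disulfide isomerase, was lower at the TSS without passing (-0.44 ± 0.16, adjusted p = 0.654).

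The fatty acid carriers and partners of Fabp5 had 15 of 24 genes tested and medians of -0.10, -0.09 and -0.36. Lpl, the lipoprotein lipase, had the smallest p at the TES (-0.98 ± 0.31, edgeR adjusted p = 0.185). In this list 4 of 15 genes had an unadjusted p under 0.05 at the TES by edgeR, against 6.85% of all genes. Besides Lpl these were Pparg (-0.76 ± 0.34), Fabp4 (-0.62 ± 0.29) and Acsl1 (-0.53 ± 0.23), and 0 were called. At the TSS and in the body 1 gene each had such a p. Slc27a1, a fatty acid transporter, had -0.96 ± 0.36 at the TSS (adjusted p = 0.727). Of the protocadherin list, 11 of 15 genes were tested, with medians of 0.06, -0.03 and 0.06. The 11 include 3 genes of the gamma cluster, Pcdhgc3, Pcdhgc4 and Pcdhgc5, whose TES values were identical. Over the 8 genes outside the clusters the medians were 0.23, -0.13 and -0.14. Pcdh7 had -1.58 ± 0.63 at the TSS (adjusted p = 0.786). The relatives of Hdgfl2 and factors of nucleosome passage had 20 of 23 tested and medians of -0.11, -0.01 and -0.02. Hdgf and Psip1, which share its PWWP domain, had gene body log2 fold changes of 0.04 ± 0.19 and -0.07 ± 0.16.

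Markers of other cells moved with genotype in some lists. Capsule and fibroblast markers, 5 of 9 in the tables, summed to 334 to 551 CPM over gene bodies in WT and 259 to 291 CPM in the knockout, and 2 of them, Pdgfra and Col3a1, were called as lower at the TES (0.0946% of all genes). Chromaffin markers, 7 of 9 in the tables, summed to 142 to 163 CPM at the TSS in WT and 172 to 302 CPM in the knockout, but overlapped in the body at 262 to 499 and 349 to 956 CPM. Macrophage markers, 6 of 9 in the tables, gave 115 to 148 CPM in WT bodies and 107 to 129 CPM in the knockout, and at the TES 494 to 603 and 662 to 722 CPM. Endothelial markers, 5 of 8 in the tables, overlapped over gene bodies at 420.1 to 571 and 417 to 449 CPM. Markers of dividing cells, 8 of 8 in the tables, gave 209 to 226 CPM at the TSS in WT and 229.6 to 273 CPM in the knockout, and overlapped in the body at 73.8 to 145 and 61.4 to 106 CPM. Glial markers, 3 of 6 in the tables, overlapped in the body at 40.7 to 52.9 and 47.5 to 51.2 CPM. Cortex markers, 9 of 9 in the tables, overlapped in all 3 regions. None of the markers in the tables was at 0 in all libraries, and lymphocyte markers were not analysed here. The part of these cells in the differences of the 5 genes was not tested.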

How the data were processed

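RPB1 ChIP-seq was made from adrenal glands of 3 WT and 3 Armc5(-/-) mice. The submitters' processing notes name the tools BWA, Picard, Trimmomatic, bcl2fastq 2.20, HOMER, MACS2, limma and edgeR, and the builds GRCm38 and mm10. The deposited tables hold the authors' raw read counts per gene at the TSS, gene body and TES (12718 genes each), per the file headers. The counting tool, window widths and filters were not given in the sources used here. A deposited log2 CPM table of the authors was not used in any test.

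Each count table was fitted whole with edgeR 4.0.16 (quasi-likelihood F test, TMM scaling, filterByExpr with a minimum count of 10 and total of 15, Benjamini-Hochberg adjustment, threshold 0.05, R 4.3.3). The SE of a log2 fold change is its size divided by the square root of F. Ratios between regions are log2 CPM with a prior count of 1, with moderated SE from limma 3.58.1. Alternatives were DESeq2 1.42.0, limma-voom, other scalings, filters and covariates, and leaving out each library. The fitting code was tested on simulated data. Promoters are from RefSeq (GRCm38.p6), and 12384 of 12718 symbols matched the annotation.

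The members, gene lists and tests were chosen with earlier results of these data known. Named besides the members were genes at the limit of the rule, the 2 most alike per member, the nearest annotated genes, and per list the gene with the smallest p. Amd1, Plin4, Plin5, Fabp4, Irf7's fold changes and the relatives Ahcyl1, Ahcyl2, Rcn1, Rcn3, Hdgf and Psip1 were picked for description after their values were seen. Pparg and Acsl1 were likewise named after their values were seen. The libraries carry their own mouse numbers, and p-values measure the spread between these 6 libraries. Armc5 is not analysed here.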

Additional observations from a re-analysis of the deposited data

How the results depend on the processing

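Of 240 fold changes of the 5 genes under 16 alternatives, 239 kept their direction, and 233 moved by less than 1 SD. The exception in direction was Hdgfl2 at the TES, which ranged from -0.78 without WT replicate 2 to 0.42 without WT replicate 3. At the TSS and in the body the genes were picked for a rise, so a kept direction there was built in. The SD used for the count of 233 is not the SE printed with the fold changes. Pcdh8 at the TES (1.61 ± 0.41, and 1.10 without WT replicate 3) counted as within it. Rcn2 at the TSS (0.91 ± 0.14, and 1.01 with table totals only) counted as outside it. Counts of called genes were less stable, and the cause was not tested. With all regions scaled by the stacked tables they were 107 at the TSS, 0 in the body, 61 at the TES and 0 in both TSS and body, against 43, 32, 116 and 6 in the fit reported. DESeq2 gave 95 at the TSS, 179 in the body and 42 in both. The mouse number prefix as a covariate gave 75, 0 in the body and 0 in both, and the depth class gave 158, 95, 184 at the TES and 39 in both. Leaving out 1 library gave 5 (without knockout replicate 3) to 84 (without knockout replicate 1) at the TSS, 0 to 37 in the body, 73 to 148 at the TES and 0 to 4 in both. Deviations of same-numbered libraries correlated at 0.44, -0.20 and 0.35 at the TSS and 0.08, -0.58 and 0.27 in the body. These mixed values cannot show whether the replicate numbers pair the samples, and the fit reported used no pairing. A replicate block gave 100 calls at the TSS, 0 in the body, 194 at the TES and 0 in both. In the body, edgeR fits with 0 calls had 647 (stacked tables), 502 (replicate block) and 519 (prefix) genes at an unadjusted p under 0.05, and those without WT replicate 1 or any one knockout library had 341 to 670. The median TSS to body ratio of the members (log2 -0.05) was 0.32 with the stacked tables, and the TES to TSS ratio (-0.66) was -1.03 there and -0.41 to -0.70 with a library left out. The TSS to body ratios of Ahcy (0.32), Fabp5 (0.25), Rcn2 (0.05) and Hdgfl2 (0.33) also changed sign with the stacked tables. Pcdh8 at the TSS rests on 9 to 18 counts per WT library, which limits its precision.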
